A study of Mus musculus with 8 samples.

Results

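Autophagy is the process by which a cell wraps part of its cytoplasm in a membrane and delivers it to the lysosome. The genes described here encode the membrane-bound LC3 and GABARAP proteins of mouse blastocysts and 5 proteins that act with them. They were the 10 rows of the deposited expression table whose symbols are Map1lc3a, Map1lc3b, Gabarap, Gabarapl1, Gabarapl2, Sqstm1, Ulk1, Becn1, Atg5 and Atg7, out of 22013 rows, and all 10 were among the 12366 genes tested.

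Poly(A) RNA was sequenced from 8 pools of 5 blastocysts each, made by in vitro fertilisation of wild-type ICR mice with oocytes of females aged 6 to 8 weeks and sperm of males aged 8 to 10 weeks. The 4 agomir pools developed in KSOM medium to which a chemically stabilised microRNA mimic, the miR-21-5p agomir, was added at 50 nM for about 75 hours until the blastocyst stage, and the 4 blank control pools in KSOM with vehicle and no oligonucleotide. Both groups were cultured at 5% CO2 and 5% O2, and the labels assign every pool to 1 batch. An unrelated oligonucleotide was not part of the design, so an effect of the miR-21-5p sequence and an effect of any oligonucleotide cannot be told apart. Since parents and fertilisation sessions are not given per pool, p-values measure only the spread between these pools.

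As background, the kinase Ulk1 starts the formation of the autophagosome, and a lipid kinase complex that contains Becn1 then marks the membrane where it grows. Atg7 activates the ubiquitin-like proteins of the pathway, and Atg5, joined to Atg12, helps to attach LC3 and GABARAP proteins to the lipid phosphatidylethanolamine. Sqstm1 (p62) binds ubiquitin-tagged cargo and LC3, and is itself degraded with the cargo. In the mouse, autophagy is induced soon after fertilisation, and embryos from oocytes that lack Atg5 arrest before the blastocyst stage when fertilised by Atg5-null sperm. Messenger RNA levels, which are all that was measured, do not report the flux through the pathway.

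The microRNA and its possible pairing sites are shown first, because the 3' untranslated regions of 3 of the 5 LC3 and GABARAP genes held a short match to it. The mature mouse sequence in RefSeq (GRCm38.p6, chr11:86584120-86584141, minus strand) is given with its seed, bases 2 to 8, in capitals. The sequence of the agomir itself is not given in the sources used here.
mmu-miR-21a-5p: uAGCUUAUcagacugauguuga
In each site the capitals mark TAAGCTA, the match to bases 2 to 7 of the microRNA followed by an A.
Map1lc3a: tggctcctaaacTAAGCTAtttcagt
Map1lc3b: tgagttccaggcTAAGCTAtggtacc
Gabarapl1: cgggttacaaggTAAGCTAggttgcc
The genes lie at chr2:155276297-155278073, chr8:121590361-121598760 and chr6:129533160-129542346 (Map1lc3a, Map1lc3b and Gabarapl1, all plus strand, GRCm38). The printed stretches come from GENCODE M21 transcripts (build GRCm38), read on the sense strand. The match lies at bases 73 to 79 of the 436-base region of Map1lc3a, at 1970 to 1976 of the 2002-base longest region of Map1lc3b, and at 799 to 805 of the 1179-base longest region of Gabarapl1. The only annotated 3' untranslated region of Map1lc3a holds it, against 1 of 4 for Map1lc3b and 1 of 3 for Gabarapl1. The longest regions of the other 7 genes held neither TAAGCTA nor the 6-base core TAAGCT, and 0 of the 10 held ATAAGCT, the match to the whole seed. Among 12238 tested genes with an annotated region, 956 (7.81%) held TAAGCTA, and their median log2 fold change was -0.028, with 3.24% of them lower at an unadjusted p under 0.05 in edgeR. The 8920 genes without TAAGCT had a median of 0.014 and 3.82% lower, and of all genes tested 3.74% were lower. A match of letters is a description and not a shown site of regulation.

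Levels of different genes are compared in FPKM, a count scaled to transcript length and library total. Gabarapl2 and Map1lc3b stood far above the other members. Over all 8 libraries Gabarapl2 averaged 4330 FPKM and ranked 17th of 22013 rows, and Map1lc3b averaged 2520 FPKM and ranked 45th. Gabarap followed at 167 FPKM, Sqstm1 at 44.7, Atg5 at 42.8, Map1lc3a at 36.3, Becn1 at 23.6, Ulk1 at 9.68, Atg7 at 5.26 and Gabarapl1 at 3.05 FPKM. The lowest library of Gabarapl2 (3494 FPKM) was above the highest of Map1lc3b (3205), whose lowest (1667) was above the highest of Gabarap (220). Gabarap was in turn above Sqstm1 in every library pair, at 127 FPKM or more against 106 or less. The ranges of Sqstm1, Map1lc3a and Becn1 overlapped one another, and that of Atg5 overlapped those of Sqstm1 and Map1lc3a, so these neighbours in the order did not differ beyond the spread between pools. Atg5, at 35.9 FPKM or more, was above Becn1, at 30.7 or less, in every library pair. The ranges of Ulk1, Atg7 and Gabarapl1 also overlapped one another. Within each library, however, Ulk1 was above Gabarapl1, most narrowly in agomir 3 (3.37 against 2.92 FPKM). The lowest Becn1 value, 16.9 FPKM, was just above the highest of Ulk1, 16.1 FPKM.

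**Figure D1:**
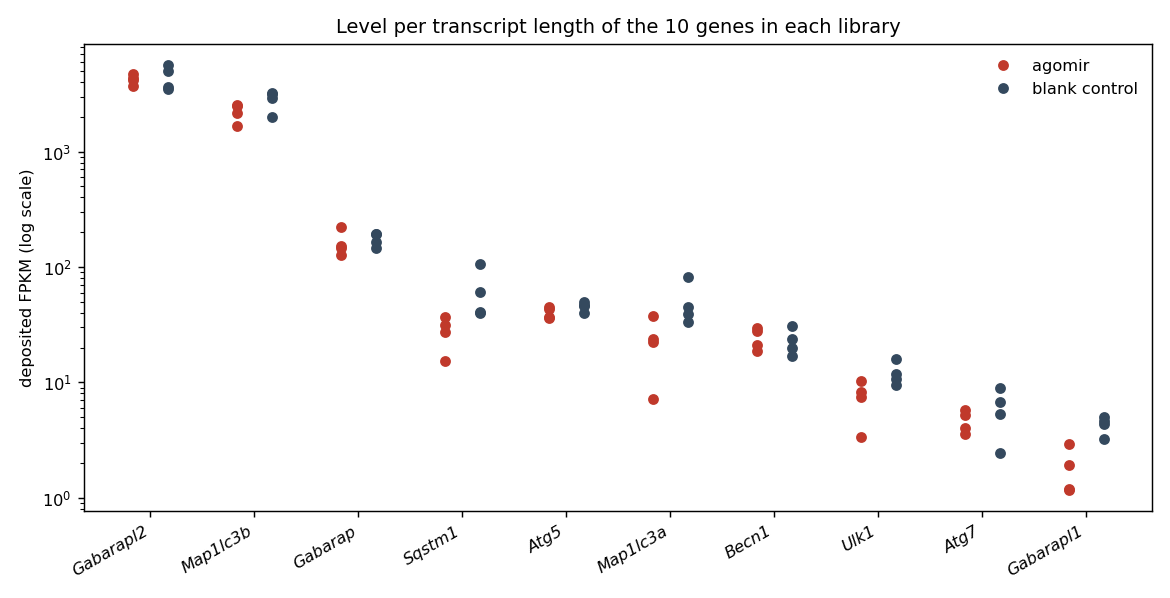
Deposited FPKM (log axis) of the 10 genes in each of 4 agomir (red, left) and 4 blank control (dark, right) libraries, ordered by mean level. Gabarapl2 and Map1lc3b lie at 1667 FPKM or more in every library and Gabarapl1 lies between 1.17 and 5.04.

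The first comparison asks whether the LC3 and GABARAP transcripts differed after culture with the agomir. Of all 12366 genes, 0 (0%) passed an adjusted p of 0.05 in edgeR's quasi-likelihood test. DESeq2 called 35 of 14319 (0.244%) and limma-voom 0, and among the 10 genes 0 passed in any of the 3 tools. At an unadjusted p under 0.05 edgeR had 4 of the 10 genes, Gabarapl1, Map1lc3a, Sqstm1 and Ulk1, all lower with the agomir, where 6.38% of all genes tested were at that level, 3.74% lower and 2.64% higher. The members were picked with earlier results of these libraries known, so this count is a description. The median log2 fold change was -0.15 over the 10 genes and 0.0048 over all genes tested. Within a gene, values below are CPM, counts scaled to the TMM-adjusted library total.

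Gabarapl1, which acts at the growing and closing autophagosome and also binds the GABA-A receptor, had the smallest p of the set. It had 2.11, 3.24, 6.06 and 2.42 CPM in agomir libraries 1 to 4, against 7.44, 8.08, 8.28 and 6.11 CPM in blank control libraries 1 to 4. All agomir libraries lay below all controls, but agomir 3 and control 4 were almost level. Groups were apart in this direction for 2.47% of all genes tested. The log2 fold change was -1.12 (SE 0.34, 95% interval -1.86 to -0.37), a ratio of 0.461, with an edgeR p of 0.0067 and an adjusted p of 0.67. The counts behind it were small, 42 to 100 reads per agomir library and 96 to 178 per control. Without agomir 3 the log2 fold change was -1.52.

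Map1lc3a encodes LC3A, one of the proteins that mark the autophagosome membrane. Its values were 41.6, 24.6, 9.09 and 28.1 CPM in agomir libraries 1 to 4, against 41.6, 79.8, 36.5 and 51.7 CPM in blank control libraries 1 to 4. Agomir 3 was the lowest library and control 2 the highest, while agomir 1 stood above control 3 and level with control 1. The log2 fold change was -1.02 (SE 0.38, 95% interval -1.86 to -0.19; edgeR adjusted p = 0.681). A log2 fold change as low or lower was found for 3.23% of all genes tested. The value for Map1lc3a came to -0.74 without either of those extreme libraries and -0.46 without both.

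Map1lc3b encodes LC3B, the form most often used as an autophagosome marker. It had 2408, 2209, 1812 and 2319 CPM in agomir libraries and 2819, 2363, 1909 and 3056 CPM in blank control libraries. The groups overlapped, and the log2 fold change was -0.21 (SE 0.20, 95% interval -0.65 to 0.22; edgeR adjusted p = 0.871). Gabarapl2 (GATE-16), also known for its part in transport through the Golgi, had 7841, 6789, 7033 and 7819 CPM in agomir libraries, inside the range of the controls at 7953, 5165, 6067 and 9723 CPM. Its log2 fold change was 0.028 (95% interval -0.47 to 0.52). Gabarap, which was found through its binding to the GABA-A receptor, had 220, 138, 151 and 171 CPM with the agomir and 139, 174, 190 and 170 CPM in controls. For it the log2 fold change was 0.015 (95% interval -0.39 to 0.42). The signs of the Gabarap and Gabarapl2 values turned under other scalings (-0.095 and -0.070 with library totals). These intervals leave room for changes of either sign up to about their bounds.

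**Figure D2:**
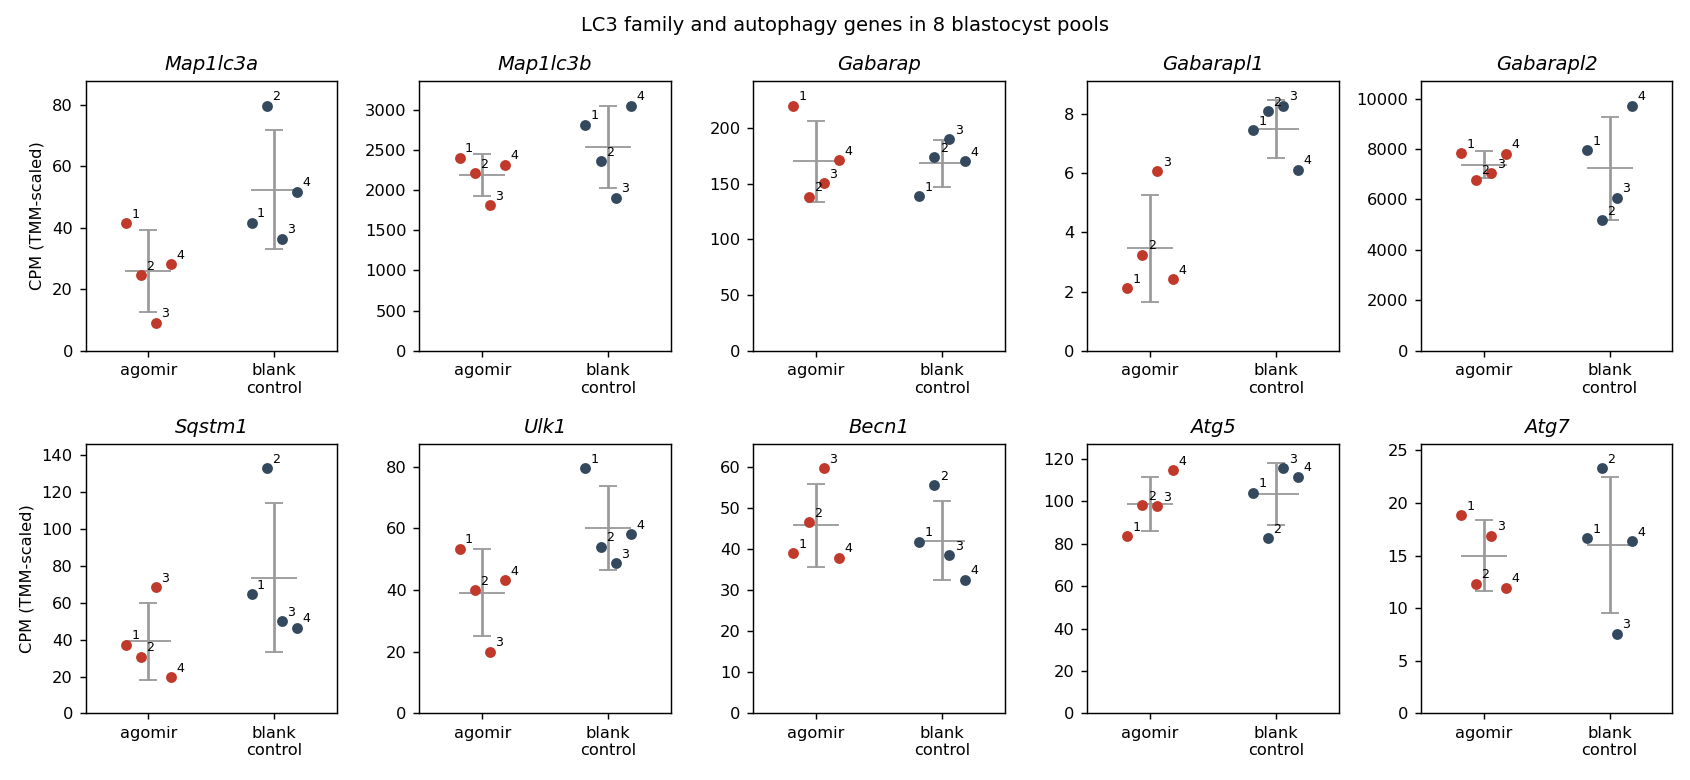
CPM of each gene in the agomir (left) and blank control (right) libraries, numbered by replicate, with the mean and SD as grey bars (n = 4 each). The groups are apart for Gabarapl1 alone, and agomir 3 is lowest for Map1lc3a, Map1lc3b and Ulk1 but highest among agomir libraries for Gabarapl1, Sqstm1 and Becn1.

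The make-up of the family was described from FPKM. Gabarapl2 made up 63.9% ± 2.28 of the summed FPKM of the 5 genes in agomir libraries and 59.2% ± 4.78 in controls, and Map1lc3b 33.3% ± 2.17 and 37.6% ± 4.33 (SD, n = 4 each). Gabarap made up 2.41% ± 0.359 and 2.43% ± 0.768, Map1lc3a 0.329% ± 0.152 and 0.689% ± 0.355, and Gabarapl1 0.0286% ± 0.0172 and 0.0604% ± 0.0202. The family as a whole took 0.94% ± 0.114 of all counts in agomir libraries and 1.03% ± 0.207 in controls. The shares of the more abundant genes differed between groups by no more than about the spread between pools.

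LC3A and LC3B were set against each other within each library, which cancels library scaling. Map1lc3b FPKM was 67.6, 105, 232 and 96.3 times that of Map1lc3a in agomir libraries 1 to 4 and 81.3, 35.7, 59.5 and 69.9 times in blank control libraries 1 to 4. Agomir 1 fell among the controls and the other agomir libraries lay above them. The mean log2 ratio of Map1lc3a to Map1lc3b in FPKM was -6.81 ± 0.751 in agomir libraries and -5.88 ± 0.517 in controls (SD, n = 4 each). The difference of -0.93 was -0.58 without agomir 3.

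Exchange of reads between family members was checked on annotated transcripts. The coding sequences of Gabarap and Gabarapl1 were 74.9% identical and those of Map1lc3a and Map1lc3b 74.1%, and no stretch shared by any pair in the alignments was longer than 17 bases. Of the 100-base windows along the longest coding transcript of each gene, 0 occurred in a transcript of another gene for 9 of the 10 members. For Gabarapl2, 9.57% of windows did, in 3 other genes, led by the processed pseudogene Gm3724 with 6.21%, so part of the Gabarapl2 count may be shared with such copies.

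Sqstm1 was the cargo receptor among the members, and its count and FPKM gave different pictures. Its CPM was 37.2, 30.8, 68.6 and 19.7 in agomir libraries and 64.8, 133, 49.9 and 46.4 in blank control libraries. Agomir 3 stood above 3 of the 4 controls, and control 2 was about 2 times as high as any other library. The log2 fold change was -0.91 (SE 0.40, 95% interval -1.78 to -0.043; edgeR adjusted p = 0.767), and -0.46 without control 2. In FPKM the agomir libraries, at 31.5, 27.4, 36.5 and 15.4, all lay below the controls, at 60.3, 106, 40.9 and 39.5, as was so for 3.27% of all genes tested on that scale. FPKM uses the library total without the TMM adjustment, so CPM and FPKM differ in library scaling as well as in transcript length.

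The deposited count and FPKM are linked by a transcript length, and for Sqstm1 this length differed between libraries. The length implied by the count, the FPKM and the library total was 1193, 1211, 1651 and 1136 bases for Sqstm1 in agomir libraries 1 to 4 and 1131, 1425, 1232 and 1134 bases in blank control libraries 1 to 4. Agomir 3 and control 2 thus had the longest, and they were also the libraries with the highest Sqstm1 CPM. Annotated coding transcripts of Sqstm1 measure 953, 1266, 2037 and 2673 bases in GENCODE M21. The ratio of the highest to the lowest implied length was 1.46 for Sqstm1 and 1.41 for Atg7. Among 7121 genes with at least 100 counts and 1 FPKM in every library its median was 1.03, and 6.78% were above 1.4. Atg7 went down to 2333 bases in control 4, against 2865 to 3300 bases in the other libraries. For Map1lc3a (1111 to 1112 bases) the implied length was that of the transcript with the TAAGCTA match, 1112 bases, and for Gabarapl1 (1815 to 1823 bases) it was close to the 1820 bases of the transcript that holds the match. For Map1lc3b it was 949 to 954 bases in agomir libraries and 924 to 977 in controls. That lies above its short coding transcripts of 766 and 775 bases and below its long ones of 2532 bases and, with the match, 2633 bases. It is nearer to the short ones, but a single length per gene cannot show whether the transcript with the match was present. Which transcripts were present was not measured directly.

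**Figure D3:**
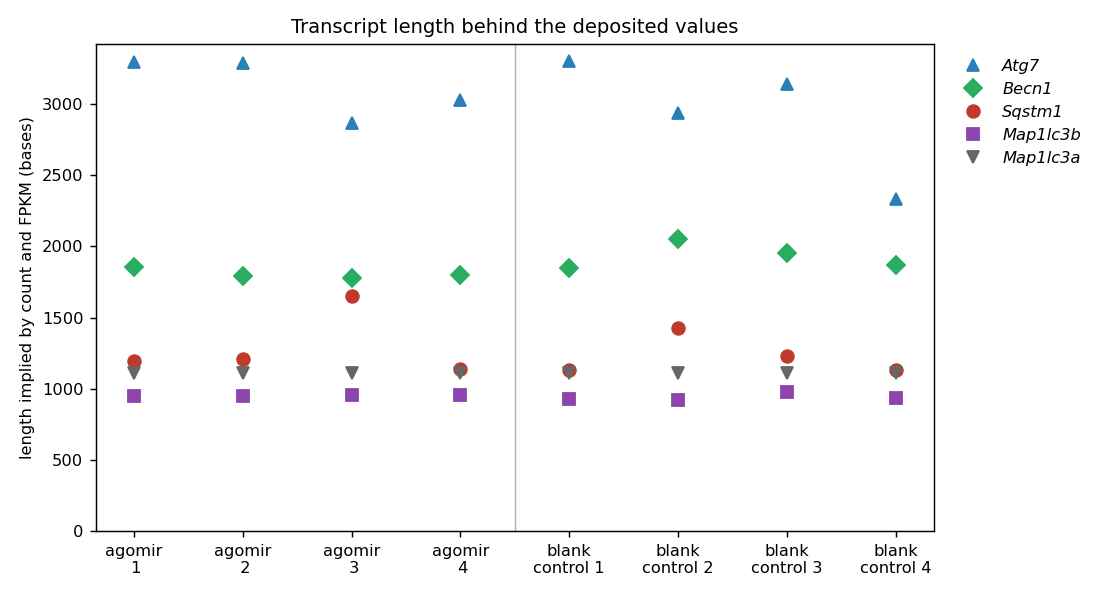
Transcript length implied by the deposited count, FPKM and library total for 5 of the genes in each library (agomir left, blank control right). Sqstm1 is longest in agomir 3 and control 2, and Atg7 is shortest in control 4, while Map1lc3a stays at 1111 to 1112 bases.

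Ulk1, the kinase that starts autophagosome formation, had 53.5, 40.0, 19.99 and 43.2 CPM in agomir libraries and 79.5, 54.1, 48.8 and 58.2 CPM in blank control libraries. Agomir 3 was the lowest and control 1 the highest, and agomir 1 stood above control 3. The log2 fold change was -0.62 (SE 0.27, 95% interval -1.21 to -0.021; edgeR adjusted p = 0.771), and -0.39 without agomir 3. Becn1, the scaffold of the lipid kinase complex, had 39.0, 46.5, 59.7 and 37.9 CPM with the agomir and 41.8, 55.5, 38.4 and 32.6 CPM in controls (log2 fold change 0.12, 95% interval -0.35 to 0.59). The sign turned without agomir 3 (-0.030), the library with the highest Becn1 value, and with library totals (-0.015).

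The conjugation genes Atg5 and Atg7 showed no difference beyond the spread between pools. Atg5 had 83.6, 98.0, 97.6 and 115 CPM in agomir libraries and 104, 82.7, 116 and 112 CPM in controls, with a log2 fold change of -0.070 (95% interval -0.44 to 0.30). Its spread was narrow, with a coefficient of variation of 12.9% in agomir libraries and 14.2% in controls. Atg7 had 18.8, 12.3, 16.9 and 11.96 CPM with the agomir and 16.7, 23.3, 7.58 and 16.4 CPM in controls (log2 fold change -0.092, 95% interval -0.76 to 0.58), and turned to 0.15 without control 2. On counts simulated gene by gene from the mean and spread of each gene, edgeR recovered 24.5% of genes changed 2-fold and 84.6% of genes changed 4-fold. The changed genes were drawn at random from all levels, and deviations that many genes of 1 library share were not simulated. In such counts a 2-fold change would often be missed.

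**Figure D4:**
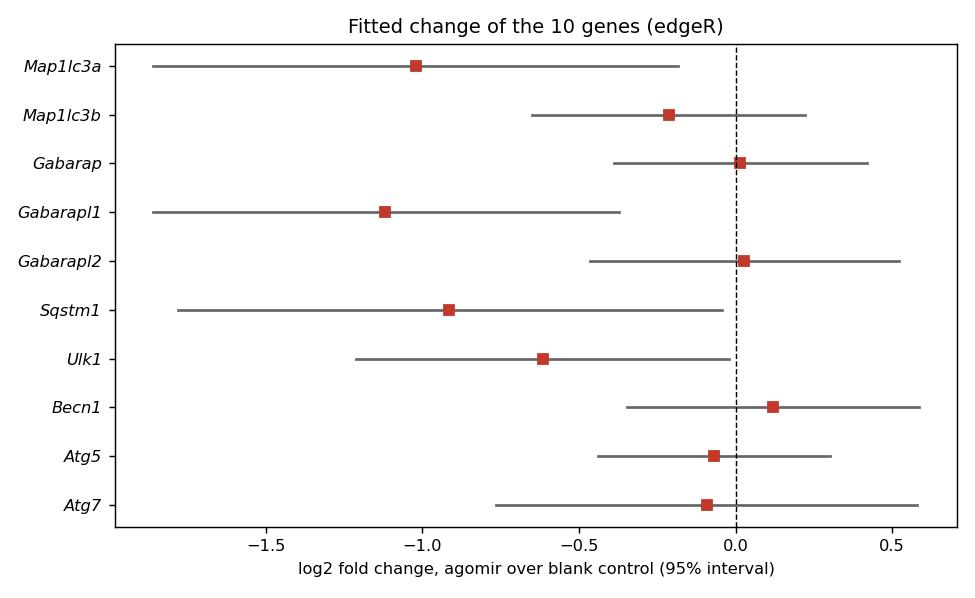
Log2 fold change, agomir over blank control, of the 10 genes with its 95% interval from the edgeR fit. The intervals of Map1lc3a, Gabarapl1, Sqstm1 and Ulk1 lie below 0 and those of the other 6 genes include it.

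The rest of the pathway was described from lists of genes by role. In 8 lists with 80 different genes, 78 were tested and 0 passed in edgeR, DESeq2 or limma-voom. Outside the members, 73 list genes were tested, with 2 lower (2.74%) and 0 higher at an unadjusted p under 0.05 in edgeR, against 3.74% lower and 2.64% higher among all genes tested. Their median log2 fold change was -0.037. Of all 78, 45 had a lower mean, but 60 with library totals and 37 without agomir 4. Over all genes tested 6104 of 12366 had a lower mean. Library totals moved the median of all genes from 0.0048 to -0.11, so counts of lower genes with that scaling carry this general shift. Of the genes that the deposited table annotates to the KEGG autophagy pathway, 143 non-members were tested with edgeR and 0 passed. At an unadjusted p under 0.05, 2 were lower (1.4%) and 2 higher, and the median was -0.064. Those lower were Irs1 (log2 fold change -2.59) and Pik3r1 (-0.52), 2 genes of insulin signalling, and those higher were the small GTPase genes Rab8a (0.55) and Mras (0.47), all named after their values were seen. The counts of Irs1 were very low, at 0.230 ± 0.285 CPM in agomir libraries and 1.46 ± 0.609 CPM in controls (SD, n = 4 each).

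In the Ulk1 complex, 4 of 5 genes had a lower mean with the agomir (median log2 fold change -0.28). Only 3 of 5 did when control 2, agomir 1, agomir 2 or agomir 4 was left out alone. Without agomir 3, by contrast, 5 of 5 did. With library totals 5 of 5 did as well (median -0.364, beside -0.109 over all genes). Beside Ulk1, its paralog Ulk2 was at 3.40 ± 1.48 CPM in agomir libraries and 4.68 ± 1.12 CPM in controls (SD, n = 4 each), the adaptor Atg13 at 80.0 ± 22.7 and 97.2 ± 18.7 CPM, and Atg101, which stabilises Atg13, at 30.4 ± 13.7 and 31.7 ± 14.1 CPM. The scaffold Rb1cc1, the gene with the higher mean, was at 36.9 ± 4.62 and 36.2 ± 2.52 CPM. The log2 fold change of Ulk2, -0.46, came to -0.22 without agomir 1, and that of Atg13, -0.28, to -0.085 without agomir 3. Here and for the list genes below, the value given without 1 library is the one nearest to 0 or farthest past it. Leaving out another library moved each of them the other way, as for Ulk2 to -0.71 without agomir 4. Atg101 (-0.064) turned to 0.28 without control 2, and Rb1cc1 (0.026) to -0.062 without agomir 3. In the Becn1 lipid kinase complex, 6 of 8 genes had a lower mean (median -0.15), but 4 of 8 without control 2 or without agomir 4. With library totals 7 of 8 did (median -0.274). Ambra1, which recruits Becn1, had a log2 fold change of -0.79 (SE 0.52), reduced to -0.33 without control 2. The targeting subunit Atg14 was at -0.41 (SE 0.33), the inhibitor Rubcn at 0.38 (SE 0.44) and the regulatory subunit Pik3r4 at -0.24 (SE 0.32). Without control 1 those of Atg14 and Rubcn came to -0.094 and 0.071, and without control 3 that of Pik3r4 came to -0.13.

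Among 10 genes that supply lipid and membrane to the growing autophagosome, 7 had a lower mean (median -0.072). The lipid scramblase gene Tmem41b was at 867, 708, 646 and 725 CPM in agomir libraries and at 1810, 772, 687 and 1400 CPM in controls. Controls 1 and 4 were high and controls 2 and 3 were level with the agomir libraries. Its log2 fold change was -0.67 (SE 0.29; edgeR adjusted p = 0.762), and -0.37 without control 1. For the lipid transfer gene Atg2a the value was -0.54 (SE 0.29), and the phosphoinositide-binding genes Wipi2 and Wdr45b had 0.36 (SE 0.21) and 0.35 (SE 0.26), or 0.18 without agomir 3 for Wipi2 and 0.14 without control 2 for Wdr45b. For the conjugation machinery, 6 of 11 were lower (median -0.066). The protease gene Atg4d, whose protein trims and releases LC3 proteins, had 35.8 ± 15.6 CPM with the agomir and 22.9 ± 8.21 CPM in controls (log2 fold change 0.64, SE 0.32), reduced to 0.36 without agomir 1. Atg16l2, Atg10 and Atg3 were at 0.28, -0.15 and -0.12, and came to 0.11 without agomir 3, 0.018 without control 3 and 0.10 without control 2.

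Among cargo receptors, 7 of 14 were lower (median 0.014), and 11 of 14 with library totals (median -0.097, beside -0.11 over all genes). After Sqstm1, the smallest p-values were those of the receptor of endoplasmic reticulum membranes Retreg1 (log2 fold change -0.63, SE 0.49), the mitophagy receptor Bnip3 (0.29, SE 0.25) and Tax1bp1 (-0.15, SE 0.20). They came to -0.36 without agomir 3, 0.11 without control 2 and -0.045 without agomir 4. Of genes of fusion with the lysosome 4 of 8 were lower (median 0.016), but 7 of 8 without agomir 3. With library totals 8 of 8 were lower, with a median of -0.114 beside -0.109 over all genes. Plekhm1, Tecpr1, Epg5 and Vamp8 were at -0.42, -0.56, -0.21 and 0.12. These values came nearest to 0 at -0.18 for Plekhm1 without agomir 3, and at -0.046 for Tecpr1 and -0.032 for Epg5 without control 2. For Vamp8 it was 0.021 without control 1. The other ends of their ranges without single libraries were -0.776, -0.845, -0.367 and 0.187. Control kinases and transcription factors had 7 of 14 lower (median 0.038). Tfeb, a transcription factor that drives lysosome and autophagy genes, had 69.0, 17.3, 23.9 and 15.2 CPM in agomir libraries and 3.41, 22.0, 23.8 and 8.59 CPM in controls. The agomir 1 library was highest, and the log2 fold change of 1.11 (SE 0.60) was 0.38 without it. Foxo3, Mtor and Mitf were at 0.37, 0.29 and 0.50, and without agomir 2 Foxo3 came to 0.20 and Mitf to 0.28.

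Sqstm1 is also a target of the oxidative stress factor Nrf2 (Nfe2l2), so other genes of that response were set beside it. Of 8 tested, 4 had a lower mean (median 0.0079). Gclm, a subunit of the enzyme that makes glutathione's precursor, had 15.0, 16.7, 13.8 and 13.5 CPM in agomir libraries, all below the controls at 25.5, 25.8, 17.9 and 18.3 CPM. Its log2 fold change of -0.57 (SE 0.20) had an adjusted p of 0.678 in edgeR, and 2.47% of all genes had groups apart in this direction. Keap1, the inhibitor of Nrf2, was at 0.54 (SE 0.29), Nfe2l2 at 0.32 (SE 0.21) and Nqo1 at 0.42 (SE 0.36). These came to 0.18 without agomir 3, 0.16 without control 2 and 0.16 without agomir 2.

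Library quality and cell composition were examined beside these values. Total counts were 18799156 to 23147449 in agomir libraries and 12246102 to 21271696 in blank control libraries, and mitochondrially encoded genes took 4.87% to 9.86% and 7.0% to 8.25% of counts. In a principal component analysis the library farthest from the rest was control 2 on component 1, which held 25.0% of the variance, and agomir 3 on component 2, which held 21.9%. These are the libraries at the extremes of Map1lc3a. All 9 trophectoderm markers, all 6 measured inner cell mass markers and all 6 primitive endoderm markers were found in every library, as the blastocyst label implies. All 9 trophectoderm markers also had a higher mean in agomir libraries, 5 of them at an unadjusted p under 0.05 in edgeR, where 2.64% of all genes were higher, and 0 after adjustment. They summed to 2210 to 7250 CPM in agomir libraries, the highest in agomir 3, and to 1870 to 3570 CPM in controls, the highest in control 2. Krt8 and Krt18 gave most of these sums. Agomir 3 was the highest of all libraries for every trophectoderm marker but Gata3. For Krt18 it had 3540 CPM, against 927 to 1090 CPM in the other agomir libraries and 763 to 2020 CPM in controls. Of the 6 inner cell mass markers 5 had a lower mean with the agomir (median log2 fold change -0.265). At an unadjusted p under 0.05 in edgeR 0 of them were lower, where 3.74% of all genes were. Inner cell mass markers summed to 149 to 251 CPM and 181 to 294 CPM, and primitive endoderm markers to 1350 to 1620 CPM and 976 to 1540 CPM. Nanog was the largest part of the inner cell mass sum in every library (74.8 to 162 and 99.2 to 215 CPM). Dab2 gave most of the primitive endoderm sum (1180 to 1450 and 806 to 1400 CPM). Markers of cumulus and granulosa cells, which surround the oocyte, summed to 6.36 to 19.4 CPM in agomir libraries and 23.0 to 63.7 CPM in controls, so the groups did not overlap. Only 2 of these markers were tested, and 1 had groups apart in this direction, as did 2.47% of all genes tested. Star overlapped, at 0.823 to 1.98 CPM with the agomir and 0.776 to 2.6 CPM in controls. Of those 9 markers, 3 or 4 were at 0 in each library, including Cyp19a1 in all 8, and Cyp11a1, a steroid synthesis enzyme also made by trophoblast, gave most of the sum (4.79 to 16.1 CPM with the agomir and 20.5 to 59.6 CPM in controls). Maternal oocyte markers summed to 6.34 to 8.60 and 3.16 to 7.68 CPM, blood markers to 0.552 to 0.871 and 0.698 to 1.21 CPM, and sperm markers to 0.436 to 0.725 and 0.512 to 1.44 CPM. The part of these differences in the levels of the autophagy genes was not tested. In pooled embryos, fewer cells of a type and less RNA per cell cannot be told apart.

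Leaving out single libraries moved each of the 4 genes with the lowest p. Gabarapl1 ranged from -1.52 to -0.94 on the log2 scale, Map1lc3a from -1.34 to -0.74, Sqstm1 from -1.33 to -0.46 and Ulk1 from -0.80 to -0.39. Without both control 2 and agomir 3 the values were -1.49, -0.46, -0.87 and -0.44. Of these genes 0 passed an adjusted p of 0.05 in any of those fits.

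**Figure D5:**
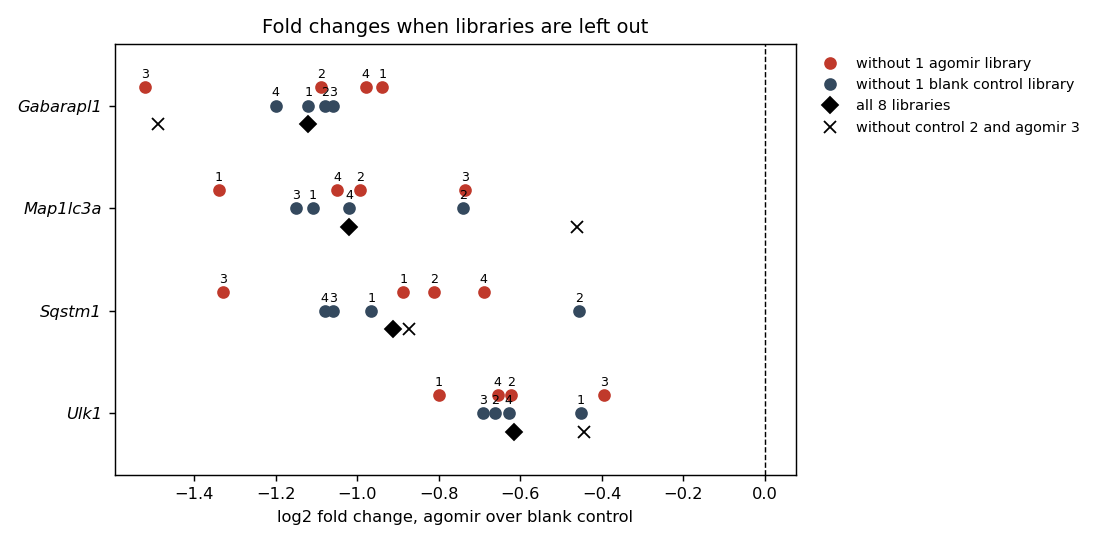
Log2 fold changes, agomir over blank control, of 4 genes with each agomir (red) or blank control (dark) library left out in turn, numbered by replicate, beside the value with all 8 libraries (diamond) and without both control 2 and agomir 3 (cross). All values lie below 0, and that of Map1lc3a is -1.02 with all libraries and -0.46 without the pair.

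The gene most like each member was found by the correlation of log2 CPM over the 8 libraries among 12365 others, as a description in which the highest of many values is picked. Map1lc3a was most like Mta1 (Pearson's correlation 0.972), Gabarapl1 most like Kcnu1 (0.938), Sqstm1 most like Mlxip (0.962) and Ulk1 most like Cnnm3 (0.976). The partners of the other members were Efcab11 for Map1lc3b (0.974), Tsen34 for Gabarap (0.976), Trhr2 for Gabarapl2 (0.963), Mto1 for Becn1 (0.986), Zfp433 for Atg5 (0.955) and Zbtb17 for Atg7 (0.984). No member was the closest partner of another.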

How the data were processed

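The deposited table held a count and an FPKM value per gene for 8 libraries, per the file headers. Per the submitters' processing notes, the tools used were HISAT2 2.1.0, RSEM, StringTie 1.3.1, fastp 0.18.0, DESeq2 1.36.0, FastQC and MultiQC, on build GRCm39. The sources used here do not give what each tool did, which annotation was used or whether strand was counted. The count columns were treated as the authors' expected counts, since 1212 of 176104 values were not whole (tolerance 1e-09), and were rounded. The deposited FPKM values, scaled by the authors to transcript length and library total, served for levels between genes and for an alternative test. Of the per-sample columns, 0 belonged to other samples.

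Genes were kept with filterByExpr (minimum count 10, minimum total 15), which removed 0.0862% of counts. The main test was that of edgeR 4.0.16, run in R 4.3.3 (TMM, robust quasi-likelihood F test, no covariate), with Benjamini-Hochberg adjustment over all 12366 genes and a threshold of 0.05. A log2 fold change is agomir relative to blank control, p-values are 2-sided, and the SE is the size of the change divided by the square root of F. The test was run on simulated counts with 200 changed genes, of which 196 (2-fold) and 188 (4-fold) were tested. Alternatives used DESeq2 1.42.0 and limma 3.58.1. The members and lists were chosen with earlier results of these data known. From each list up to 4 genes with the smallest p were named, and the most like gene was sought on log2 CPM with a prior count of 2. Implied length is the count divided by FPKM and by the library total, scaled to bases. Sequences came from GENCODE M21 (GRCm38) by Ensembl identifier and from RefSeq, and no coordinates of different builds were combined. Intervals cover the spread between libraries with counting error included, which is larger for the shallowest library and for Gabarapl1.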

Additional observations from a re-analysis of the deposited data

How the results depend on the processing

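The number of genes called by edgeR was 0 with all libraries, 35 with DESeq2, and 0 to 1 when 1 library was left out (1 without control 4). No list gene and none of the 10 members was called under any of the 19 alternatives. The signs of Map1lc3a, Map1lc3b, Gabarapl1, Sqstm1 and Ulk1 held in all 19. Gabarap (0.015) turned to -0.095 with library totals, -0.054 with upper-quartile scaling, -0.127 and -0.128 with FPKM (pseudocounts 1 and 0.1) and -0.0013 with the replicate block, and ranged from -0.13 to 0.11 without single libraries. Gabarapl2 (0.028) turned to -0.070, -0.041, -0.046 (pseudocount 1) and -0.046 (0.1) in the first 4 of those settings, to -0.085 with limma-voom and -0.079 without control 2 and agomir 3, and ranged from -0.10 to 0.21. Becn1 turned to -0.015 with library totals and ranged from -0.030 to 0.29, Atg5 from -0.16 to 0.0041, and Atg7 from -0.32 to 0.15, with 0.091 without control 2 and agomir 3. The cause was not tested. Library totals moved the median of all genes to -0.11, with 82.1% of genes at an unadjusted p under 0.05 lower, against 58.7% with TMM, 75.1% with upper-quartile scaling and 83.4% with FPKM. Relative to the shift with library totals, Gabarap, Gabarapl2 and Becn1 stood above the median. The difference in the log2 ratio of Map1lc3a to Map1lc3b was -0.93 and ranged from -1.17 to -0.58 without single libraries. The labels give no pairing of pools. Deviations of same-numbered libraries correlated at -0.067, -0.057, -0.14 and 0.12, and the best-matching control had the same number for agomir 4 alone. Such values cannot show whether pools shared parents or sessions. The replicate block called 0 genes and gave -1.22 for Gabarapl1 and -1.15 for Map1lc3a (edgeR adjusted p = 0.836 each).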
